A study of Mus musculus with 8 samples.

Results

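The transcripts described here encode the enzymes, membrane proteins and proton pump of the lysosome in the mouse uterus. Members were taken by name: every gene in any of 4 deposited comparison tables whose symbol begins with Atp6v or Atp6ap, plus a list of 23 lysosomal genes. Of 5828 genes listed in the tables, 37 were members, made up of 15 pump genes and 22 genes of the list. Ctss, a cathepsin of antigen-presenting cells, was in none of the tables, and the annotation holds 26 protein-coding genes that match the pump pattern. Names decided membership, but a gene could be found only if a table listed it, which requires an average above 1 in at least 1 group.

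The uteri came from 8 adult females of a mixed C57BL/6 and 129SvEv background, with 1 female of each genotype drawn from each of 4 litters. Control females (WT below) carried floxed Ezh2 alleles without Cre (EZ fl/fl), and Ezh2cKO females (KO below, EZ fl/fl; Prcre/+) carried the same alleles with Cre driven from the progesterone receptor locus, which is active in epithelium, stroma and smooth muscle of the uterus. An effect of Ezh2 loss and an effect of carrying the Cre allele therefore cannot be told apart. All animals were ovariectomized at postnatal day 71 ± 4 and their uteri were collected at day 112 ± 11, so every group lacked ovarian hormones. Sections of 10 µm were read by Visium, in which barcoded spots capture messenger RNA in place and each molecule is counted once by a unique molecular identifier (UMI). The authors named spots epithelium or stroma and pooled the 4 animals of each genotype, so there is 1 value per gene in each of 4 pools and no spread between animals.

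Lysosomes are acidic compartments in which proteases, glycosidases and lipid-handling enzymes break down material from endocytosis and autophagy. The acid is made by the V-type proton pump, whose cytosolic V1 sector splits ATP and whose membrane V0 sector carries the protons. In the uterus lysosomal activity is known to follow ovarian hormones. Ctsd is known as an oestrogen-responsive gene of breast cells and Ctsl as a progesterone-responsive gene of the uterus.

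Member genes had 12488 UMIs in the KO epithelium pool and 12378 in that of WT, and the stroma pools held 8484 (KO) and 3794 (WT). Taking the size factor sum of WT stroma as 1, the depth of the pool was 2.75 for KO epithelium, 2.54 for WT epithelium and 2.01 for KO stroma. This depth is the total of a pool, not the depth per spot. Levels below are given as recovered UMIs and, where stated, as UMIs scaled to the depth of the WT stroma pool. Ezh2 itself was in none of the tables, so the genotype labels were not checked against the deleted gene. A gene enters a table when its average in that table exceeds 1 in at least 1 group. All 37 members were listed for KO against WT epithelium, 27 for KO epithelium against KO stroma, 22 for WT epithelium against WT stroma and 17 for KO against WT stroma. The 10 members in the epithelium table alone, among them the enzyme genes Glb1, Man2b1, Tpp1 and Lgmn and the receptor gene Scarb2, have no stroma value. The 95% intervals are Clopper-Pearson (exact) and cover counting error in the UMIs only, not the spread between animals. A spot can hold several cells, so fewer cells of a type and less RNA per cell cannot be told apart.

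**Figure D1:**
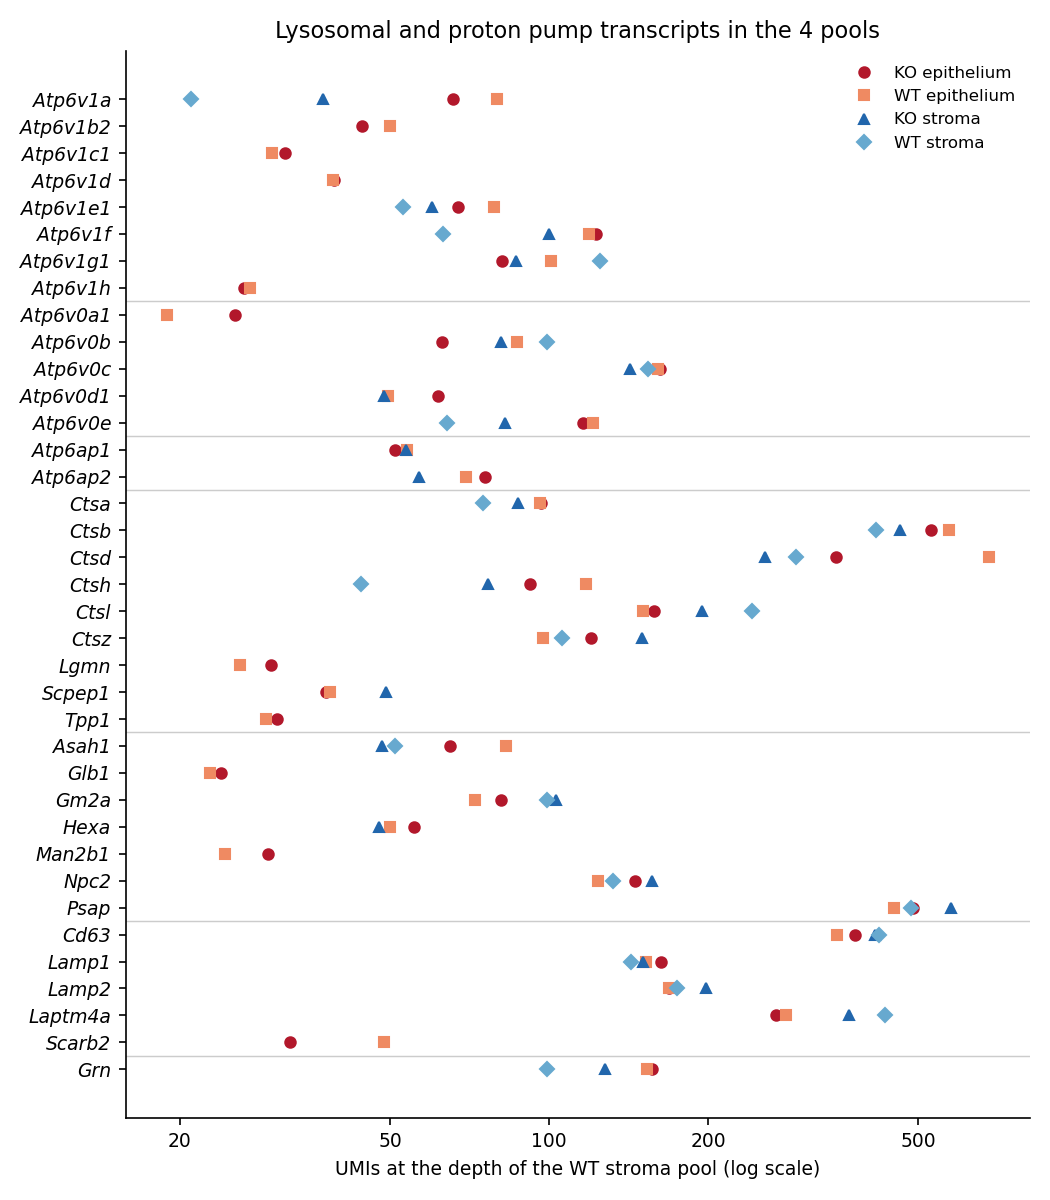
Depth-scaled UMIs (log axis, UMIs at the depth of the WT stroma pool) of all 37 members in the 4 pools, grouped by role from V1 sector (top) to Grn (bottom). Each symbol is 1 pool of 4 animals with no error bar, and Ctsd has its highest symbol in WT epithelium at 679, with the other pools between 256 and 350.

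A feature that several members share, and that the choice of members did not use, is the 8-base palindrome TCACGTGA near the start of the gene. It is the core of the CLEAR element bound by the transcription factor TFEB and its relatives, regulators of lysosomal genes. Promoter windows of 300 bases (250 before to 50 after the start) from RefSeq on GRCm38.p6 were available for 30 members. The palindrome, which reads the same on both strands, was in the windows of 5 of these 30 members (16.7%), in 1.12% of all 27025 genes with a window and in 2.85% of the 4707 listed genes with one. Of the 7 members called between compartments below, 6 had a window and 3 of these held it. Those 3 sites are shown 5′ to 3′ on the gene's strand with 30 bases each and the palindrome in capitals, followed by the sites of Ctsa and Atp6v0d1, which were not called.
Ctsd: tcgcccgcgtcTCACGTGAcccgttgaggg
Atp6v1a: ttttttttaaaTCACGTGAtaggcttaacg
Atp6v0e: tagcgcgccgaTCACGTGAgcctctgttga
Ctsa: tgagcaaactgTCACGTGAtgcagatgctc
Atp6v0d1: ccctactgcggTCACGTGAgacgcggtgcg

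The Ctsd stretch lies at chr7:142387908-142387937 (minus strand), with 91 bases between the palindrome and the RefSeq start, inside an annotated untranslated exon of GENCODE M21. The Atp6v1a stretch lies at chr16:44139373-44139402 (minus strand), with 124 bases between palindrome and start, in an annotated intron. The Atp6v0e stretch lies at chr17:26676387-26676416 (plus strand), with the palindrome 2 bases after the start and in an untranslated exon. The Ctsa stretch is at chr2:164833749-164833778 (plus strand) in an untranslated exon, in a window that holds another match, and the Atp6v0d1 stretch is at chr8:105566050-105566079 (minus strand), outside the GENCODE transcripts. The shorter hexamer CACGTG, which every TCACGTGA contains, was in the windows of 10 members (33.3%) and of 12.7% of listed genes, and added Ctsl among the called members. A match describes letters in a window and does not show that a factor is bound there.

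The comparison of epithelium with stroma in WT uterus asked in which compartment each transcript is more abundant. Of 22 members listed, 7 were called at an adjusted p-value under 0.05 in the authors' deposited table, where 28.8% of all 1769 genes were. Epithelium was the higher side for 5 of them (13.1% of all genes) and stroma for 2 (15.7% of all genes). The called members higher in epithelium were the pump genes Atp6v1a, Atp6v0e and Atp6v1f and the protease genes Ctsh and Ctsd. Those higher in stroma were the protease gene Ctsl and the membrane protein gene Laptm4a. Of the 22 members, 6 (Atp6v1a, Atp6v0e, Atp6v1f, Atp6v1e1, Ctsh and Asah1) had an average above 1 in epithelium alone and were listed through the group where they are high. Among the 16 with an average above 1 in both compartments, 3 were called (18.8%, against 15.0% of the 1045 such genes). With the threshold at 0.01, calls were left for Atp6v1a, Ctsh and Ctsd (21.8% of all genes), and these 3 were also the ones called with an absolute deposited log2 fold of at least 1 (21.7% of all genes). Dropping the 25% of genes with the lowest level removes Atp6v1a and leaves the other 6 called members.

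Within the V1 sector the subunits did not share 1 pattern. Atp6v1a, which encodes the catalytic A subunit, had 203 UMIs in WT epithelium and 21 in WT stroma, and 181 and 75 in the KO pools. Its level in WT epithelium was 3.80 times that in WT stroma (interval 2.42 to 6.28), and the authors' deposited table lists an adjusted p of 7.2e-06. On the depth-scaled level the order was WT epithelium (79.9), KO epithelium (65.7), KO stroma (37.3) and WT stroma (21), so both epithelial pools lay above both stromal pools.

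Atp6v1f, which encodes the F subunit of the central stalk, had 302 UMIs in WT epithelium and 63 in WT stroma, a 1.89-fold contrast (1.43 to 2.52). The authors' deposited table gives it an adjusted p of 0.0206. Its depth-scaled level was 119 in WT epithelium and 123 in KO epithelium, and 99.9 in KO stroma against 63 in WT stroma, which left WT stroma as the lowest pool. Atp6v1e1, the E subunit of a peripheral stalk, had a WT ratio of 1.48 (1.09 to 2.05) without a call. Atp6v1g1, the G subunit of the same stalk, went the other way with a ratio of 0.806 (0.648 to 1.01), and WT stroma was its highest pool at a depth-scaled level of 125.

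In the V0 sector Atp6v0e, a small membrane subunit, was the called gene. It had 308 UMIs in WT epithelium and 64 in WT stroma, a 1.89-fold contrast (1.44 to 2.52), and the authors' deposited table lists an adjusted p of 0.019. Both of its epithelial levels (121 in WT and 116 in KO, depth-scaled) lay above its stromal levels of 82.5 in KO and 64 in WT. The proton-carrying ring subunits showed no call. Atp6v0c had a WT ratio of 1.04 (0.864 to 1.26) and its depth-scaled levels lay between 142 and 162 in the 4 pools. Atp6v0b had a WT ratio of 0.878 (0.690 to 1.12). The annotation holds 2 pump pseudogenes that copy Atp6v0c, and its counts are uncertain, because no source used here gives how such reads were handled.

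Summed over the 7 listed pump members, WT epithelium held 1.29 times the level of WT stroma (1.17 to 1.42), with a median log2 ratio of 0.57 beside 0.02 over all genes of the table. Both values depended on which members were counted. Over the 4 pump genes in all 4 tables (Atp6v1f, Atp6v1g1, Atp6v0b and Atp6v0c) the summed ratio was 1.06 (0.948 to 1.18), and over the 3 with an average above 1 in both compartments the median log2 ratio was -0.19.

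The proteases differed among themselves in direction. Ctsd encodes cathepsin D, the aspartic protease of the lysosome, and lies on chromosome 7 (142375911 to 142388038, minus strand, GRCm38). The WT pools held 1727 UMIs in epithelium and 294 in stroma, and the KO pools 963 and 515. Its WT contrast was 2.31-fold (2.04 to 2.62), with the adjusted p at 0.00131 in the authors' deposited table. Its average exceeded 1 in both compartments. WT epithelium stood apart from the other pools, at a depth-scaled level of 679 against 350 in KO epithelium, 294 in WT stroma and 256 in KO stroma.

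Ctsh encodes cathepsin H, a cysteine protease that trims peptides from the amino end. It had 299 UMIs in WT epithelium and 44 in WT stroma, a 2.67-fold contrast (1.94 to 3.76), and the authors' deposited table lists an adjusted p of 0.000124. Depth-scaled, the order was WT epithelium (118), KO epithelium (92.2), KO stroma (76.5) and WT stroma (44), the same order as for Atp6v1a.

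Ctsl encodes cathepsin L, another cysteine protease, and had 382 UMIs in WT epithelium and 242 in WT stroma. It was 1.61-fold higher in stroma (1.37 to 1.90), and the authors' deposited table lists an adjusted p of 0.0315. Both stromal pools (242 in WT and 195 in KO, depth-scaled) lay above both epithelial pools (158 in KO and 150 in WT). Ctsb, the cysteine protease cathepsin B, had 1451 UMIs in WT epithelium and 416 in WT stroma with a ratio of 1.37 (1.23 to 1.53) and no call (adjusted p 0.275, from the authors' deposited table). Ctsa, a serine carboxypeptidase that also protects other lysosomal enzymes, had a ratio of 1.28 (0.984 to 1.68), and Ctsz, a carboxypeptidase, 0.917 (0.727 to 1.16). Neither interval excludes an equal level in the pools.

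Lipid and glycan enzymes and their activators were spread around equality, with no call among 4 listed. Psap encodes the precursor of the saposins, which present sphingolipids to their hydrolases, and had 1141 UMIs in WT epithelium and 485 in WT stroma (ratio 0.926, 0.832 to 1.03). Npc2, which hands cholesterol to its exporter, had a ratio of 0.939 (0.764 to 1.16). Gm2a, the activator that lifts ganglioside for the hexosaminidase, had 0.731 (0.570 to 0.943), and Asah1, acid ceramidase, had 1.63 (1.19 to 2.26). Gm2a and Asah1 thus pointed to opposite compartments, and the authors' deposited table gives them an adjusted p of 0.381 and 0.175.

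Among the membrane proteins Laptm4a, a transmembrane protein of late endosomes and lysosomes, was the called gene. It had 714 UMIs in WT epithelium and 432 in WT stroma and was 1.54-fold higher in stroma (1.36 to 1.74), and the authors' deposited table lists an adjusted p of 0.0428. Its depth-scaled level was 432 in WT stroma and 370 in KO stroma against 281 in WT and 269 in KO epithelium, so the compartments did not overlap. The tetraspanin gene Cd63 had a ratio of 0.831 (0.739 to 0.935) without a call. The glycoprotein genes Lamp1 (1.06, 0.877 to 1.30) and Lamp2 (0.964, 0.807 to 1.16), which encode abundant proteins of the lysosomal membrane, stood near equality. Summed, the 4 membrane protein genes were 1.23 times as high in stroma (1.15 to 1.32), whereas the 6 listed proteases were 1.45 times as high in epithelium (1.36 to 1.55). Ctsd holds 1727 of the proteases' 4350 UMIs in WT epithelium, and the ratio was 1.17 (1.08 to 1.26) without it and 1.09 (1.01 to 1.18) without Ctsh too, which was listed through epithelium alone. Grn, which encodes progranulin, a secreted protein delivered to lysosomes, had a ratio of 1.55 (1.24 to 1.95) and is at adjusted p 0.131 in the authors' deposited table.

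In KO uterus the same comparison called none of 27 members, where 9.88% of 2744 genes were called. The smallest adjusted p of a member was 0.121, for Atp6v1a, in the authors' deposited table. Its contrast was 1.76-fold (1.34 to 2.34) beside 3.80-fold in WT. Ctsd had 1.37-fold (1.23 to 1.52) beside 2.31-fold in WT, and Ctsh 1.20-fold (0.982 to 1.48) beside 2.67-fold. Ctsl was 1.23-fold higher in stroma (1.07 to 1.42) beside 1.61-fold, and Laptm4a 1.37-fold (1.24 to 1.52) beside 1.54-fold. Atp6v0e had 1.40-fold (1.16 to 1.70) and Atp6v1f 1.23-fold (1.03 to 1.47), beside 1.89-fold for both in WT. Of the 7 members called in WT, the counting intervals of the genotypes did not overlap for 3 (Atp6v1a, Ctsd and Ctsh) and overlapped for the other 4. The same count was not made over all genes, so 3 of 7 has no share to be read against. Of the 486 genes called in WT, 98.4% had the smaller contrast in KO. Whether a contrast differed between genotypes beyond the spread between animals could not be tested with 1 pool per group.

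**Figure D2:**
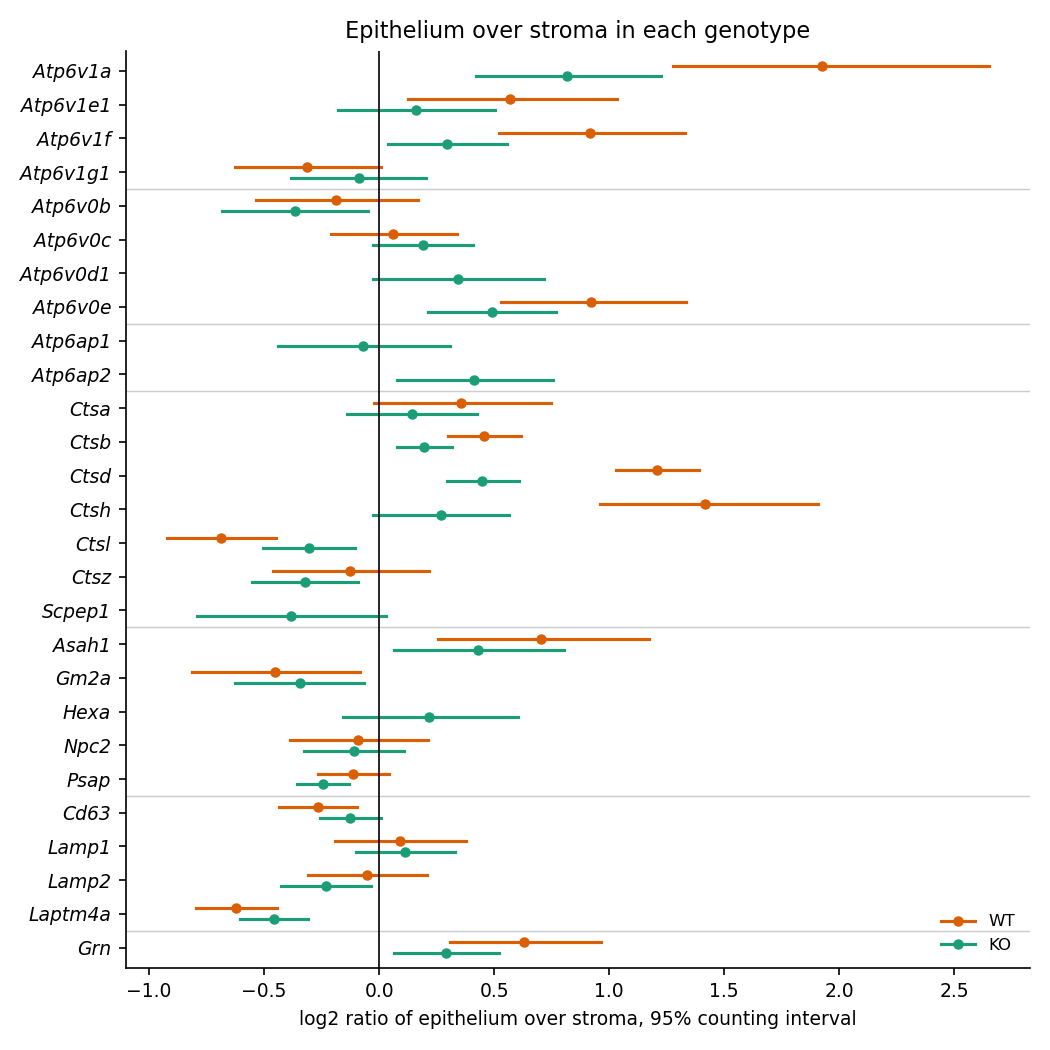
Log2 ratio of epithelium over stroma (x axis) for each member listed in WT (orange) or KO (green), with 95% counting intervals as bars and 0 marking equal levels. Atp6v1a, Ctsh and Ctsd lie farthest right in WT, at 1.93, 1.42 and 1.21, and at 0.82, 0.27 and 0.45 in KO.

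These contrasts can be set side by side, since the WT and KO tables share no pool. All 22 members in both had the same sign in WT and KO, as did 84.5% of the 1737 genes in both. The KO contrast was the smaller for 15 of 22 members (68.2%) and for 78.0% of all genes. The median absolute log2 contrast was 0.45 in WT and 0.28 in KO over the members, and 0.45 and 0.27 over all genes. The 7 members called in WT all had the smaller contrast in KO, as did 478 of the 486 genes called in WT, and choosing genes by their WT call favours large WT values. The members' values thus lay close to those of the tables as a whole.

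**Figure D3:**
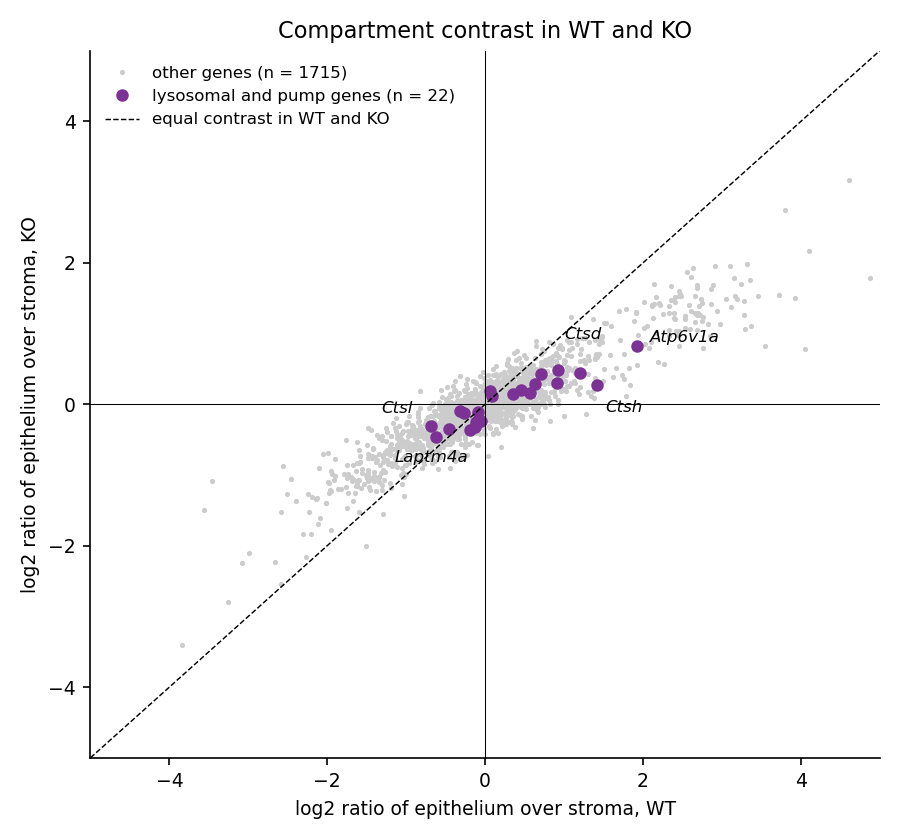
Log2 ratio of epithelium over stroma in WT (x axis) against KO (y axis) for 22 members (purple) and 1715 other genes (grey), with a dashed line of equal contrast. Members farthest from 0 in WT, such as Atp6v1a, lie nearer to 0 in KO than the dashed line, as most of the other genes do.

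Members not in the WT table add values in KO alone. Atp6v0d1, a V0 subunit that couples the sectors, had a KO ratio of epithelium over stroma of 1.27 (0.982 to 1.64), and Atp6ap2, an accessory protein also known as the prorenin receptor, had 1.33 (1.06 to 1.69). Atp6ap1, the other accessory protein, had 0.954 (0.737 to 1.24), Hexa, the alpha subunit of hexosaminidase, 1.16 (0.896 to 1.52), and Scpep1, a serine carboxypeptidase, 0.767 (0.577 to 1.02). None of these was called. Summed over 10 pump members the KO ratio was 1.16 (1.08 to 1.24), beside 1.05 (0.958 to 1.15) over the 4 in all tables.

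KO and WT were then compared within epithelium, to ask which transcripts differ with Ezh2 deletion. None of 37 members was called, where 0.12% of 5811 genes were called. The authors' deposited table gives 36 members an adjusted p of 1 and Ctsd 0.637. Of the 37 members, 36 had an average above 1 in both genotypes. Over the members the genotype ratio (KO over WT) had a log2 median of 0.02, beside -0.10 over all genes of the table. A ratio above 1 was found for 22 members (59.5%), against 35.2% of all genes.

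Ctsd had the lowest ratio of the members. It had 963 UMIs in KO epithelium and 1727 in WT epithelium, a level 1.94 times as high in WT (1.80 to 2.11), and 45 of 5811 genes had a lower ratio. The 0.637 of the authors' deposited table does not call this difference, so a gap larger than counting error did not pass the authors' test. The next lowest were Scarb2, the receptor that carries glucocerebrosidase to lysosomes, with 89 and 124 UMIs (ratio 0.662, 0.499 to 0.877), and the V0 ring gene Atp6v0b with 173 and 221 (0.722, 0.589 to 0.885). At the other end stood Atp6v0a1, a V0 subunit of the proton path, with 70 and 48 UMIs (1.35, 0.919 to 1.99), Atp6v0d1 with 170 and 126 (1.24, 0.983 to 1.58) and Ctsz with 330 and 247 (1.23, 1.04 to 1.46). Atp6v0a1 was listed through KO alone. Counting intervals lay above 1 for 3 members (Ctsz, Npc2 and Psap) and below 1 for 7. Intervals were not counted over all genes, of which 35.2% had a ratio above 1, so the 3 and 7 have no share beside them.

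Most of the abundant members differed little between genotypes in epithelium. Ctsb had 1458 UMIs in KO and 1451 in WT (ratio 0.927, 0.862 to 0.998), Psap 1343 and 1141 (1.09, 1.00 to 1.18) and Cd63 1045 and 891 (1.08, 0.989 to 1.18). Lamp1 (1.07, 0.932 to 1.23), Lamp2 (1.00, 0.875 to 1.14), Grn (1.02, 0.887 to 1.17) and Atp6v0c (1.01, 0.882 to 1.16) had intervals on both sides of equality. Among members with epithelial values alone, the V1 genes Atp6v1b2, Atp6v1c1, Atp6v1d and Atp6v1h (69 to 127 UMIs per pool) had ratios of 0.886 to 1.06, and Glb1, Man2b1, Tpp1 and Lgmn (58 to 84 UMIs) 1.05 to 1.21. The intervals of these 8 genes spanned equality. The 15 pump members summed to a ratio of 0.953 (0.904 to 1.00) and the 22 lysosomal list members to 0.925 (0.899 to 0.951). Once centred on the median gene of the table these were 1.02 and 0.994. Summed by role, the 9 protease genes stood at 0.800 (0.766 to 0.835), or 0.972 (0.923 to 1.02) without Ctsd, and the 7 lipid and glycan enzyme genes at 1.08 (1.01 to 1.14).

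**Figure D4:**
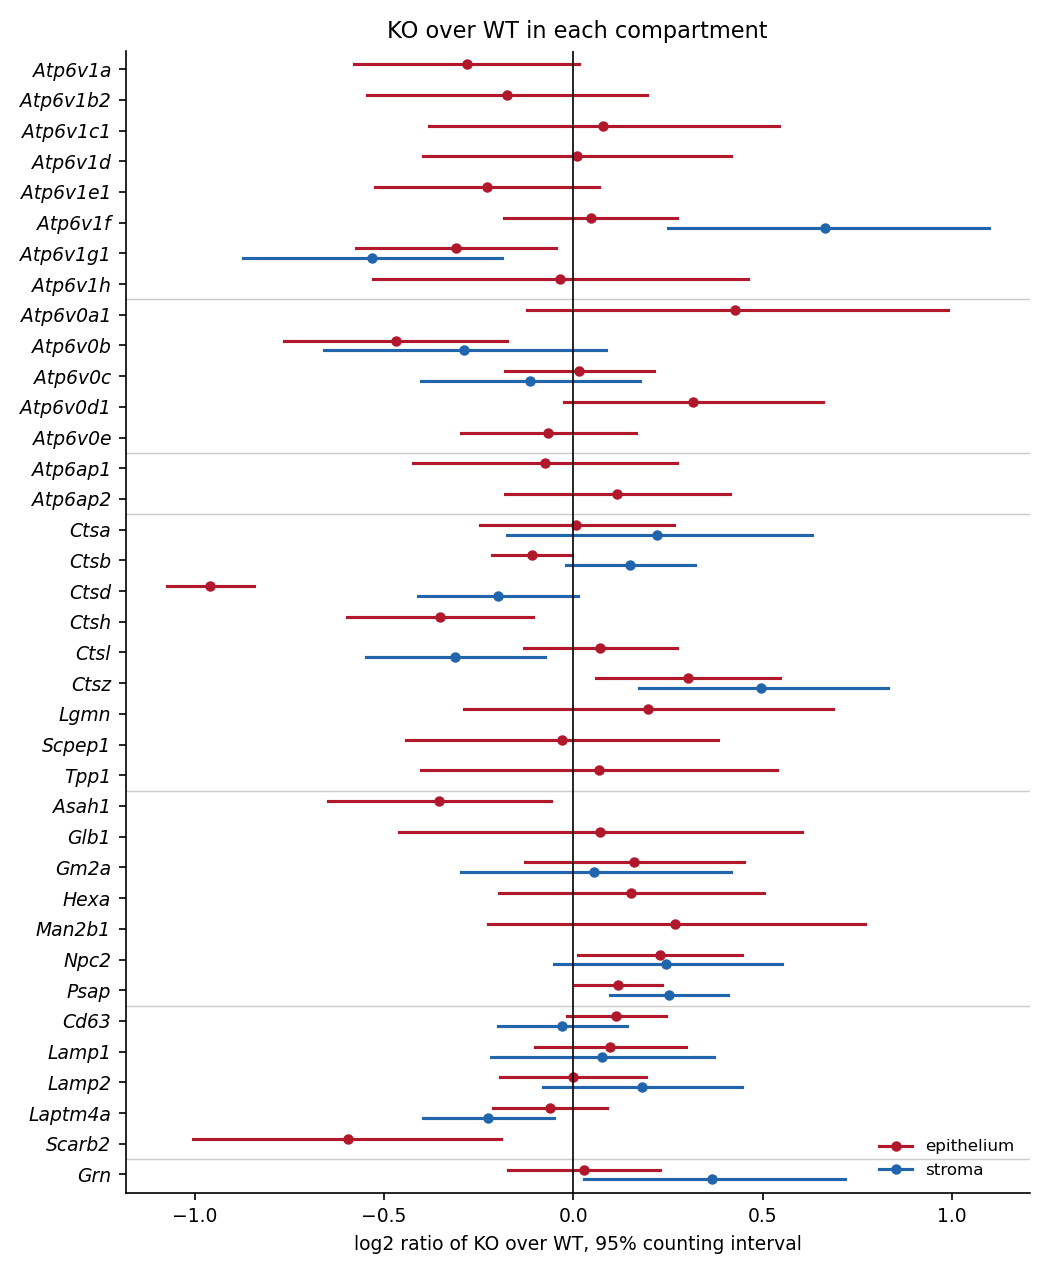
Log2 ratio of KO over WT (x axis) in epithelium (red, 37 members) and stroma (blue, 17 members), with 95% counting intervals as bars and 0 marking equal levels. Ctsd in epithelium lies at -0.96, apart from the other members, which lie between -0.59 (Scarb2) and 0.67 (Atp6v1f in stroma).

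In stroma none of 17 members was called between genotypes, where 1.51% of 1191 genes were called. The smallest adjusted p of a member in the authors' deposited table was 0.873, for Atp6v1f. Atp6v1f counted 201 UMIs in KO and 63 in WT (ratio 1.59, 1.19 to 2.14) and was listed through KO alone. Atp6v1g1, of the peripheral stalk, had 174 and 125 UMIs (0.692, 0.547 to 0.878), the lowest ratio of the 17 members. These V1 genes therefore had values on opposite sides of equality in the same pools. Ctsz (301 and 106 UMIs, 1.41, 1.13 to 1.78) and Grn (257 and 99, 1.29, 1.02 to 1.64) had the next highest ratios, and Ctsl (392 and 242, 0.805, 0.684 to 0.949) and Atp6v0b (163 and 99, 0.818, 0.634 to 1.06) the next lowest. Atp6v0b was listed through WT alone, which sets its ratio below 1 in advance.

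The median log2 ratio of the 17 members in stroma was 0.07, beside -0.05 over all genes. Ctsd had 515 and 294 UMIs, a ratio of 0.871 (0.753 to 1.01). Ctsb (1.11, 0.988 to 1.25), Psap (1.19, 1.07 to 1.33), Npc2 (1.19, 0.965 to 1.46), Lamp1 (1.05, 0.860 to 1.29), Lamp2 (1.13, 0.946 to 1.36) and Cd63 (0.980, 0.871 to 1.10) filled the middle of the range. The 3 lipid and glycan enzyme genes summed to 1.17 (1.07 to 1.28) and the 4 pump genes to 0.929 (0.826 to 1.04). Of the 17 members, 13 had the same sign of the genotype ratio in epithelium and stroma (76.5%), as did 63.9% of the 1185 genes in both tables, and both come from the same 8 animals.

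The compartment tables give stromal counts of 5 members that the stromal genotype table does not list. Atp6v1a had a ratio of KO over WT stroma of 1.78 (1.08 to 3.03), Ctsh 1.74 (1.24 to 2.49), Atp6v0e 1.29 (0.961 to 1.75), Atp6v1e1 1.13 (0.815 to 1.60) and Asah1 0.945 (0.667 to 1.35). Atp6v1a and Ctsh therefore had a higher value in KO stroma and a lower one in KO epithelium (0.823, 0.670 to 1.01, and 0.784, 0.661 to 0.930).

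**Figure D5:**
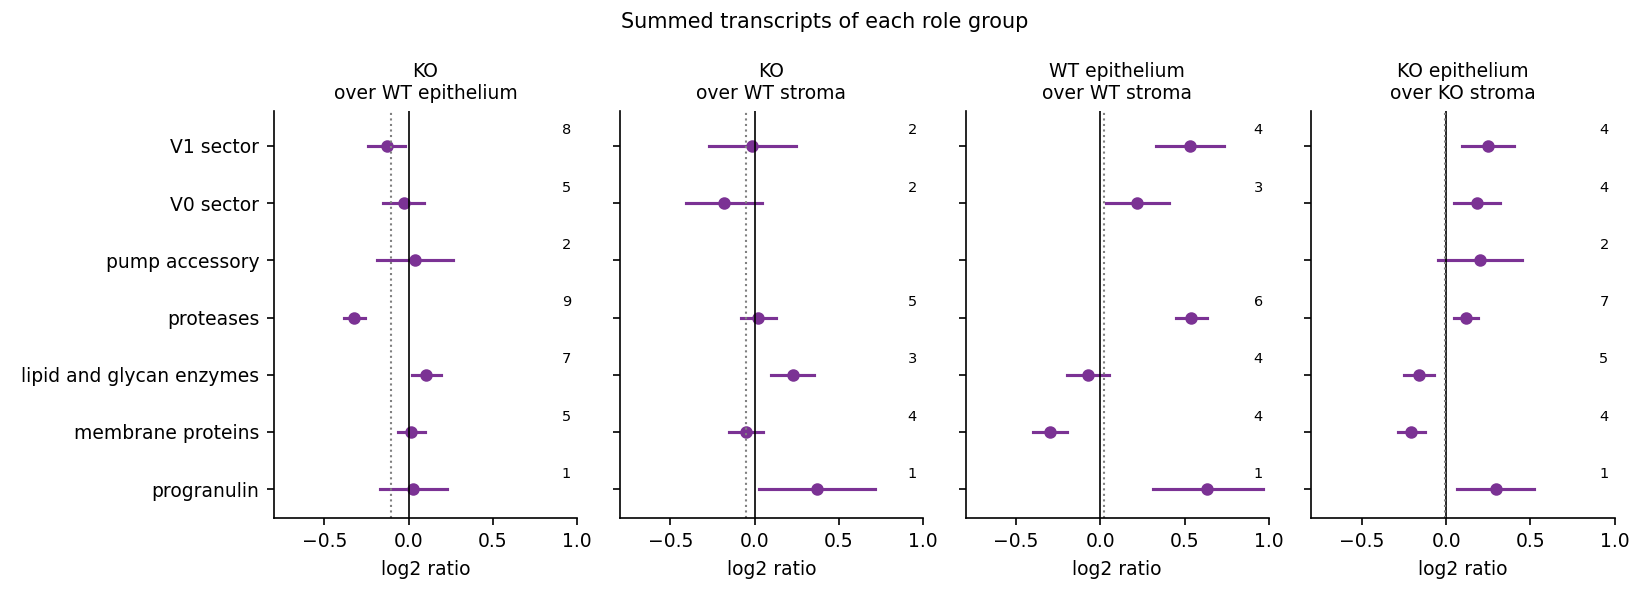
Log2 ratio of the summed UMIs of each role group in the 4 comparisons (x axis), with 95% counting intervals as bars, the number of members at the right and a dotted line at the median of all genes of the table. Proteases lie above 0 in WT epithelium over WT stroma (summed ratio 1.45) and below 0 in KO over WT epithelium (0.800), values that are 1.17 and 0.972 without Ctsd.

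Summed markers of several cell types had different levels in the genotypes. Of 19 simple epithelium markers, 11 had counts in all pools, and their summed depth-scaled level was 531 in WT stroma and 1170 in KO stroma, 2.20-fold higher in KO (2.00 to 2.43). In epithelium the same sum was 4296 in WT and 3716 in KO. Endometrial stroma markers summed to 2921 in WT epithelium and 4098 in KO epithelium (16 of 16 markers, ratio 1.40, 1.36 to 1.44), and 7 of 11 smooth muscle markers to 1550 in WT stroma and 760 in KO stroma. The KO over WT ratio was 0.902 for the stroma markers in stroma and 0.654 for the smooth muscle markers in epithelium. Single markers were mixed: in epithelium 5 of 18 epithelium markers and 14 of 16 stroma markers were higher in KO. In stroma 10 of 16 stroma markers were higher in KO (median log2 ratio 0.23), against the direction of their sum. Dcn, with a ratio of 0.735, holds 5135 of the summed 8389 in WT stroma. The part of these shifts in the smaller KO contrasts of Atp6v1a, Ctsh and Ctsd was not tested. The epithelial identity of the spots was plain in both genotypes, with all 11 listed epithelium markers called higher in WT epithelium and all 14 in KO epithelium.

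Macrophages are rich in lysosomes, so their markers were measured beside the members. Of 18 macrophage markers 7 were listed anywhere and the defining genes Adgre1 and Csf1r were in no table. The 3 with counts in all pools (Cd14, Cd74 and Lyz2) summed to a depth-scaled level of 351 in WT epithelium, 318 in KO epithelium, 467 in WT stroma and 456 in KO stroma. In epithelium 6 markers were listed between genotypes, none was called, and 4 of them were above equality in KO (median log2 ratio 0.39). Of these 4, C1qb and Fcer1g were listed through KO alone, which sets their ratios above 1 in advance. The median includes them. C1qb had a ratio of 2.20 (93 UMIs in KO and 39 in WT), Tyrobp 1.64 (1.20 to 2.25) and Fcer1g 1.52 (1.03 to 2.28), whereas Cd14 had 0.592 (0.470 to 0.743) and Lyz2 0.694 (0.562 to 0.856), so the summed level does not stand for the whole list. Lyz2, macrophage lysozyme, was 2.18-fold higher in KO stroma than in KO epithelium (1.78 to 2.67) and C1qa, a complement subunit, 2.20-fold (1.58 to 3.11), and the authors' deposited table lists adjusted p values of 0.0216 and 0.0365. In that comparison 9.88% of all 2744 genes were called, and C1qa was listed through KO stroma alone, the group where it is high. In WT, Lyz2 was 2.07-fold higher in stroma (1.68 to 2.54) and Cd74 1.46-fold (1.25 to 1.70). Neither was called, and the authors' deposited table lists adjusted p values of 0.0530 and 0.373. The part of macrophages in the members' values was not tested. Cd14 went the other way, with 198 UMIs in WT epithelium and 18 in WT stroma, a 4.33-fold contrast (2.67 to 7.45) called at 7.34e-06 in the authors' deposited table. In that comparison 13.1% of all 1769 genes were called higher in epithelium. Cd14 was listed through WT epithelium alone, which sets its ratio above 1 in advance.

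Other genes of the pathway, listed by role, gave few calls. Between genotypes in epithelium none was called among 22 other lysosomal hydrolases (median log2 ratio -0.11), 14 other lysosomal membrane proteins (-0.02), 16 genes that deliver enzymes to lysosomes (-0.09), 10 genes of lysosomal nutrient sensing (-0.11), 2 cystatins (0.08) and 13 autophagy genes (-0.03). All of these medians are to be read beside the -0.10 of the whole table. Examples by UMI count are Gaa, acid alpha-glucosidase, with 250 and 253 UMIs in KO and WT epithelium (ratio 0.912, 0.762 to 1.09), and M6pr, the cation-dependent mannose 6-phosphate receptor, with 257 and 225 (1.05, 0.878 to 1.27). Gabarap, an autophagosome protein, had 680 and 592 (1.06, 0.948 to 1.19).

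Between compartments the 1 call in these lists was Sort1 in KO, where 9.88% of all 2744 genes were called. Sort1 encodes sortilin, a receptor that carries enzymes from the Golgi to lysosomes, and was 2.13-fold higher in KO epithelium than in KO stroma (1.51 to 3.04), from 134 and 46 UMIs. The authors' deposited table gives it an adjusted p of 0.0297, and it was listed through KO epithelium alone, the group where it is high. The cystatins, which inhibit cathepsins, stood on opposite sides in WT, with Cst3 1.51-fold higher in stroma (1.33 to 1.71) and Cstb 1.64-fold higher in epithelium (1.27 to 2.14), neither of them called. The nutrient sensing genes Lamtor2 (1.71, 1.21 to 2.46), Lamtor4 (1.27, 0.967 to 1.69) and Lamtor5 (1.39, 1.03 to 1.90), subunits of the Ragulator complex that docks signalling proteins on the lysosome, had WT ratios of epithelium over stroma above 1 without a call. They were the 3 listed of 16 genes in that list. Lamtor2 and Lamtor5 (41 and 57 UMIs in WT stroma) were listed through epithelium alone, which sets their ratios above 1 in advance.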

How the data were processed

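Visium libraries of 4 WT and 4 KO uteri were analysed from 4 deposited tables. Per the submitters' processing notes the build was GRCm38. How reads were aligned, spots named and p-values computed is not given in the sources used here. Per the file headers, the authors deposited an average per group (a signal pooled over animals), a log2 fold change and an adjusted p-value (FDR).

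Pooled UMI sums were solved from the averages and log2 values by least squares, with a pseudocount of 1. Averages times size factor sums came out whole (tolerance 0.01) for 100% of genes, and 0 sums differed between tables. This step was tested on simulated data. Ratios are of these sums over size factor sums, without a pseudocount. No p-value was computed here, and members were called at the authors' adjusted p under 0.05.

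The members and lists were chosen with earlier results of these data known. The naming rule took called members, the 3 of highest level in WT epithelium per role, and the 3 largest and 3 smallest genotype ratios per compartment. Other members were named after their values were seen, to account for the set, and of the related lists called genes and those of highest level. The Lamtor genes and macrophage markers were named after their values were seen. Alternatives were a threshold of 0.01, a minimum log2 fold of 1, leaving out the lowest 25% of genes, centring, and narrower sets of members. Centring the ratios of single members and summing proteases without Ctsd or Ctsh were added after seeing the data.

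All 37 gene IDs were found in GENCODE M21. Promoters came from RefSeq. Python 3.11.15, NumPy 2.4.6, SciPy 1.17.1, pandas 2.3.3 and matplotlib 3.10.9 were used.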

Additional observations from a re-analysis of the deposited data

How the results depend on the processing

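For WT epithelium against WT stroma, 3 members in place of 7 were called at an adjusted p under 0.01 in the authors' deposited table, and the same number with a minimum absolute log2 fold of 1. Atp6v1a, Ctsh and Ctsd kept the call under both, and Atp6v0e, Atp6v1f, Ctsl and Laptm4a lost it under both. Without the lowest 25% of genes by level 6 were left, since Atp6v1a is among those removed. The median log2 ratio of pump genes in that comparison, 0.57, was 0.060 without the lowest 25% of genes by level and -0.19 over the 3 with an average above 1 in both groups. Their summed ratio over the 4 pump genes in all tables was 1.06 in WT and 1.05 in KO. Each of these settings leaves fewer pump genes. Centring on the median gene moved the summed KO over WT ratio in epithelium to 1.02 for the pump and 0.994 for the lysosomal list. For the pump and the lysosomal list, 20 of 24 recomputed summed ratios stayed within the counting intervals of the values as listed. The 4 recomputed summed ratios of the proteases, without Ctsd or without Ctsd and Ctsh, all fell outside theirs. For medians the limits used were the medians of the members' single-gene limits, and 22 of 24 recomputed medians stayed between them. Those limits have the width of a single gene and are no interval for a median, so this count does not show that the medians are stable. In the 3 comparisons without a called member, these settings can only keep the count at 0. No paired analysis was possible because each average is taken over all 4 females of 1 genotype. For the same reason no replicate could be left out. The total depth of a pool was lowest in WT stroma, where the members had 21 to 485 UMIs.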
